A study of Mus musculus with 9 samples.

Results

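The kinetochore, spindle checkpoint and spindle genes described here are 40 mouse genes taken from a fixed list of names. They were looked up by platform symbol among the 18193 genes with a probe set of their own on the array, and each gene was read from its probe set with the highest mean log2 signal. All 40 were on the array, and 36 of them passed the filter on dim genes and were tested. The 9 samples are oral tumors of mice, 3 in each group, and the series describes them as induced by Ras activation together with altered p53. All mice were 1 year old. The genotypes were p53R172H/- (a missense allele, with the other copy deleted), p53R172H/+ (the missense allele beside a wild-type copy) and p53-/- (both copies deleted). All 3 groups therefore share the Ras activation, and no group without it was measured. The labels prefix the genotypes with "K" and do not name the promoter or the cells in which Ras was activated or p53 altered. They also do not say whether each tumor had its own mouse, so the errors and tests reflect differences among these samples, which may be technical.

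At mitosis each chromosome is held by its centromere, where a histone variant marks the chromatin on which the inner kinetochore assembles. The outer kinetochore binds spindle microtubules, and the spindle checkpoint delays the separation of sister chromatids until every kinetochore is attached. The chromosomal passenger complex corrects faulty attachments, and midzone and cytokinesis proteins then divide the cell. Most of these genes are transcribed late in the cell cycle, so in a whole tumor their RNA follows the share of dividing cells as well as the level in each cell. In these bulk samples more dividing cells and more RNA per cell cannot be told apart.

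In p53R172H/- tumors 30 of the 36 tested genes were higher on average than in p53-/- tumors, against 43.8% of all genes tested, and their median log2 fold change was 0.45, against -0.03 over all 12167 genes tested. The sizes ran from Nusap1, a protein that bundles spindle microtubules (2.02-fold higher, log2 fold change 1.01 ± 0.16 SE), to Nsl1, a subunit of the outer kinetochore's MIS12 complex (log2 fold change -0.34 ± 0.22 SE). No listed gene passed an adjusted p of 0.05 with limma, where the lowest adjusted p among them was 0.202 and 0% of all genes tested were called. At an unadjusted p under 0.05, which 15.6% of all genes tested reached, 25 listed genes were higher and 1 was lower, against 6.44% higher and 9.16% lower over all genes tested. For 22 of the 36 genes every p53R172H/- tumor lay above every p53-/- tumor, which held for 9.11% of all genes tested, and for 1 gene every one lay below, as for 13.8% of all genes tested. The p53R172H/+ tumors had a mean between those of the other groups, with p53R172H/- highest, in 27 of the 36 genes and in 18.6% of all genes tested.

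**Figure D1:**
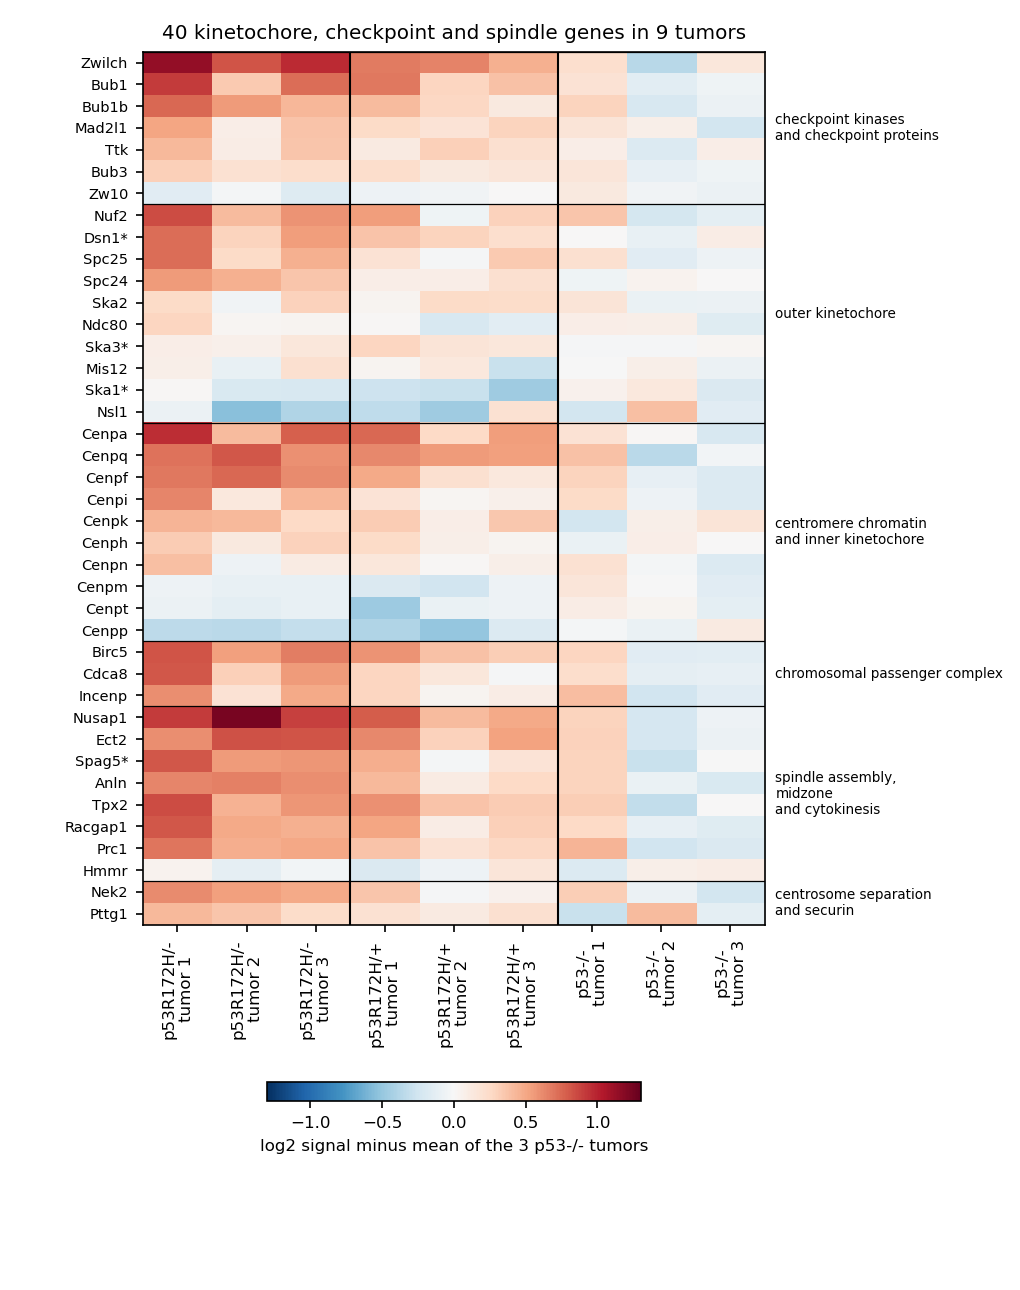
Log2 signal of the 40 listed genes (rows, grouped by role; an asterisk marks the 4 genes too dim to test) in 9 tumors (columns), each as the difference from the mean of the 3 p53-/- tumors. The p53R172H/- columns are red for most rows, the p53R172H/+ columns paler, and Nsl1, Cenpp and Zw10 are the rows with the lowest p53R172H/- values among the tested genes.

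Promoter sequences of the listed genes are shown because most listed genes were higher together. Many late cell cycle genes carry a cell cycle homology region, a short element near the transcription start that MuvB complexes bind, together with CCAAT boxes bound by NF-Y. Windows from 250 bases before to 50 bases after the annotated start were taken from RefSeq (build GRCm38.p6) and matched by symbol for 34 of the 40 genes. TTTGAA or TTCGAA, searched on both strands, lay within 50 bases of the start in 17 of these 34 genes. The same held for 4.31% of the 9789 genes tested on the array that have a window, and for 6.12% of all 27025 genes in the promoter table. Anywhere in the 300 bases it was found in 19 of the 34 genes, against 16.4% of the array genes. CCAAT, also on both strands, was in 22 of the 34 and in 42% of the array genes. Both together, with the first element near the start, were in 14 of the 34 genes and in 2.02% of the array genes. A list of other kinetochore and spindle genes, which leaves out the 40, has 42 genes with a window. The first element lay near the start in 12 of these 42 and anywhere in 19. CCAAT was in 25, and both together, with the first near the start, in 10. The motifs were searched after the expression values were known, and a match is a description of the letters in the window.

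The 18 elements in the 17 genes lay between base -43 and base 46 counted from the start, with the first transcribed base as 1, and 11 of them read on the gene's own strand. These 11 include TTCGAA of Bub1, which reads the same on both strands and was counted on the gene's strand. Of the 18 elements, 17 are printed 5′ to 3′ on the strand that reads TTTGAA or TTCGAA, with that motif in capitals and 10 flanking bases on each side (4 on the right for Bub1b, whose element ends near the edge of the window).
Anln, chr9:22389163-22389188, minus strand: aaattcaaatTTTGAAcggccgtggt
Anln, chr9:22389170-22389195, plus strand: ccgttcaaaaTTTGAAtttcagcgcc
Bub1, chr2:127831830-127831855, minus strand: gcgcggggaaTTCGAAtcgccggcgg
Bub1b, chr2:118598241-118598260, plus strand: agacgttaaaTTTGAAactt
Bub3, chr7:131560317-131560342, minus strand: attggctgatTTTGAAcgccaacggc
Cenpa, chr5:30666892-30666917, plus strand: cgggtgatttTTTGAActgctggcga
Cenpf, chr1:189688069-189688094, minus strand: cggcgggcagTTTGAAtcgctcgtgc
Cenpn, chr8:116921721-116921746, minus strand: ccgaggtgctTTTGAAgccgccaatg
Ect2, chr3:27153824-27153849, minus strand: actggattttTTTGAAtcggaggcgg
Hmmr, chr11:40733414-40733439, minus strand: ttgaggtaaaTTTGAAttcaggcgag
Ndc80, chr17:71526813-71526838, plus strand: cccaaggcggTTTGAAttttaaagtt
Prc1, chr7:80294436-80294461, plus strand: tctggctcggTTTGAAttccgcgggg
Racgap1, chr15:99651636-99651661, minus strand: ggtgcgtgatTTTGAAccggatctgg
Ska3, chr14:57826162-57826187, plus strand: gcgctacacaTTTGAAtcctgcgcag
Spag5, chr11:78301584-78301609, minus strand: gccgcctctaTTTGAAcccaatacgc
Spc25, chr2:69206174-69206199, minus strand: cggtggagagTTTGAAattgaaagac
Ttk, chr9:83834686-83834711, minus strand: cggaaacacgTTTGAAatttccccgc

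**Figure D2:**
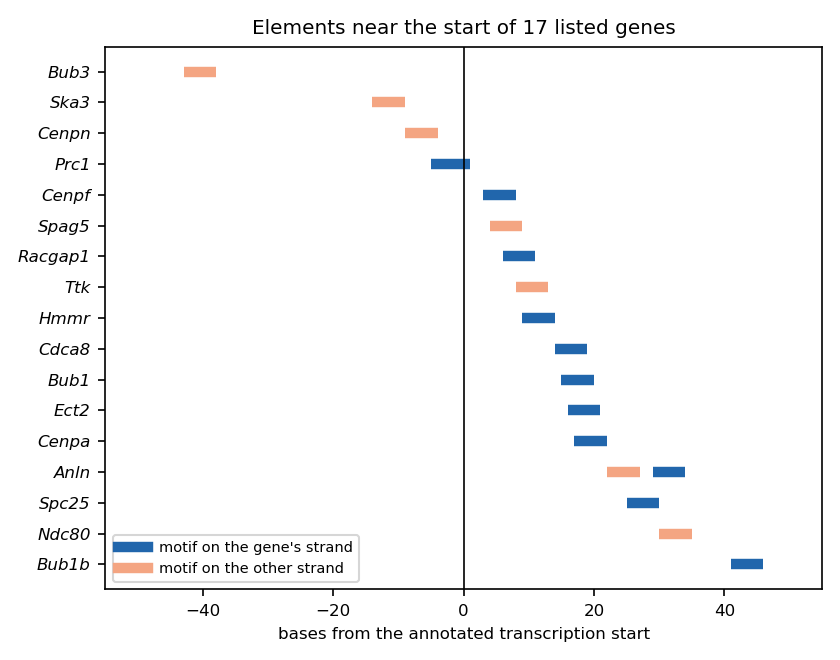
Position of the TTTGAA or TTCGAA elements (bars, to scale) in bases from the annotated transcription start (line at 0) of 17 listed genes, blue on the gene's strand and orange on the other strand. Most bars lie just downstream of the start, and those of Bub3 and Bub1b are the farthest on either side. The Bub1 bar is drawn blue, although its TTCGAA reads the same on both strands.

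The windows of the 6 genes with the smallest p in p53R172H/- against p53-/- tumors for which the table has one differ in these letters. Ect2 has both motifs, Cenpf both, Anln only the first (its 2 copies are reverse complements of each other, 1 base apart), Cenpq only CCAAT, and Nusap1 and Birc5 neither in this window. The motifs, on either strand, are in capitals, and each promoter is on its gene's strand.
Nusap1, chr2:119618048-119618347, plus strand: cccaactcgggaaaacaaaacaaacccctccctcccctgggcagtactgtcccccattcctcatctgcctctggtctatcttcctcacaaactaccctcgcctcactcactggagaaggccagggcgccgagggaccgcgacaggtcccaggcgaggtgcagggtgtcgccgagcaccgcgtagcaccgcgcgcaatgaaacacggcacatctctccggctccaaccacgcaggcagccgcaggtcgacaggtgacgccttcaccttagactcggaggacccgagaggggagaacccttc
Ect2, chr3:27153805-27154104, minus strand: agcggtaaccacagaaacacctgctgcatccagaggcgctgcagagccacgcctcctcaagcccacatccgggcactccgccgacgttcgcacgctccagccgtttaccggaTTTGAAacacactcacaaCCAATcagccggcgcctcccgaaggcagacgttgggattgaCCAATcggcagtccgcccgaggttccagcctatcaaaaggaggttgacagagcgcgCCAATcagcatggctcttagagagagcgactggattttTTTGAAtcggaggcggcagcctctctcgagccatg
Birc5, chr11:117848987-117849286, plus strand: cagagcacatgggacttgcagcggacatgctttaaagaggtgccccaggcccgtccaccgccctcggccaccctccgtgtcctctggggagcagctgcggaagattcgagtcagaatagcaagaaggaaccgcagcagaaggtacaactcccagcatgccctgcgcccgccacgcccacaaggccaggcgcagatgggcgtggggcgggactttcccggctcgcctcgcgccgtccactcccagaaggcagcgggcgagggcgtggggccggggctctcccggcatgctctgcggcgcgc
Anln, chr9:22389157-22389456, minus strand: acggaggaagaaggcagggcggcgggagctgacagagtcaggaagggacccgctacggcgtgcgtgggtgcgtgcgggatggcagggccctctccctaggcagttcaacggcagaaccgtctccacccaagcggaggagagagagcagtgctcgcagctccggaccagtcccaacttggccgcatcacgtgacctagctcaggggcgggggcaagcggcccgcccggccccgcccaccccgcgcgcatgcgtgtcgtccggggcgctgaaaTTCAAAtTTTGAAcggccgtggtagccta
Cenpf, chr1:189688037-189688336, minus strand: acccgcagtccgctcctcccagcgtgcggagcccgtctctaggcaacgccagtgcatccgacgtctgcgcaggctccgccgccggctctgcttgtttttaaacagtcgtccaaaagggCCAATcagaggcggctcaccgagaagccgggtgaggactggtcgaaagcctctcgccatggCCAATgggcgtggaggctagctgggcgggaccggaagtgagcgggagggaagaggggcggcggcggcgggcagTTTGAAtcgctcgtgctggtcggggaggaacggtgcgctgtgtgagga
Cenpq, chr17:40934525-40934824, minus strand: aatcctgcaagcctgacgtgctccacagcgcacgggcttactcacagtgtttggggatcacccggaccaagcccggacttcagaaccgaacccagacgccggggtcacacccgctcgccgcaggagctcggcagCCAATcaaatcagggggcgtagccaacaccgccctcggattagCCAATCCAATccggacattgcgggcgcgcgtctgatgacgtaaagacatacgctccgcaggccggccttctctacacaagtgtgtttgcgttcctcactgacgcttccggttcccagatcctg

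Of the 15 tested genes with the element near the start, 14 were higher on average in p53R172H/- than in p53-/- tumors, with a median log2 fold change of 0.56 and a range from -0.04 to 0.75. Over all genes tested, 43.8% were higher on average. Of the 16 tested genes whose window lacks the element there, 12 were higher, with a median of 0.33 and a range from -0.33 to 1.01. The other 5 tested genes have no window, and 4 of them were higher, with a median of 0.46 and a range from -0.34 to 0.98. The ranges of the sets overlap, and Nusap1, with the highest value, is among the genes whose window lacks the element. The differences between the sets were not tested.

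Among the checkpoint genes, 6 of 7 were higher on average in p53R172H/- than in p53-/- tumors, each of the 6 with an unadjusted p under 0.05, and the median log2 fold change was 0.32. Over all genes tested, 43.8% were higher on average in this comparison and 6.44% were higher at that threshold. Zwilch, a subunit of the complex that brings checkpoint proteins and dynein to unattached kinetochores, had 215, 171 and 191 signal units in p53R172H/- tumors 1, 2 and 3 and 156, 152 and 134 in the p53R172H/+ tumors, against 113, 75.6 and 108 in the p53-/- tumors. The 3 groups did not overlap, and the p53R172H/- tumors were 1.97-fold above the p53-/- tumors (log2 fold change 0.98 ± 0.17 SE). Bub1b, the checkpoint protein BubR1 that restrains the anaphase-promoting complex, had 435, 382 and 352 signal units in the p53R172H/- tumors and 346, 314 and 284 in the p53R172H/+ tumors, against 318, 225 and 246 in the p53-/- tumors. The lowest p53R172H/- tumor was above the highest of both other groups, with a log2 fold change against p53-/- of 0.58 ± 0.15 (SE). Bub1, a checkpoint kinase, averaged 270 ± 52.2 in p53R172H/-, 231 ± 35.3 in p53R172H/+ and 169 ± 19.9 signal units in p53-/- tumors (SD, n = 3 each). The differences of the others were smaller, at 0.32 for Mad2l1, the Mad2 effector of the checkpoint, 0.29 for Ttk, the kinase that starts it, and 0.25 for Bub3, which binds both Bub proteins (log2 fold changes of p53R172H/- against p53-/-). Zw10, which works in the same complex as Zwilch, was at -0.11 ± 0.09 (SE), and its groups overlapped.

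The chromosomal passenger genes were higher in p53R172H/- than in p53-/- tumors in all 3 cases, against 43.8% of all genes tested. Birc5, the survivin subunit that brings the complex to the centromere, had 906, 745 and 816 signal units in the p53R172H/- tumors and 774, 672 and 644 in the p53R172H/+ tumors, against 624, 467 and 469 in the p53-/- tumors. Both mutant groups lay wholly above the p53-/- tumors, and p53R172H/- was 1.59-fold above p53-/- (log2 fold change 0.67 ± 0.14 SE). Cdca8, the borealin subunit, had 979, 693 and 818 signal units in p53R172H/-, 676, 618 and 552 in p53R172H/+ and 652, 516 and 517 in p53-/- tumors. Here the p53R172H/- tumors stood above both other groups while those overlapped each other. Its other probe sets above the filter gave 0.30 and -0.01 in place of 0.56 for p53R172H/- against p53-/-. Incenp, the scaffold of the complex, was at 0.43 ± 0.18 (SE), and the groups overlapped, with p53R172H/- tumor 2 at 391 signal units and p53-/- tumor 1 at 453.

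Centromere and inner kinetochore genes were divided. Of 10, 7 were higher on average in p53R172H/- than in p53-/- tumors, 6 of them with an unadjusted p under 0.05, while Cenpp, Cenpm and Cenpt were lower. The shares over all genes tested were 43.8% higher on average and 6.44% higher at that threshold. Cenpf, a large protein of the outer kinetochore surface listed here with the other CENP genes, had 315, 328 and 300.2 signal units in the p53R172H/- tumors and 275, 226 and 215 in the p53R172H/+ tumors, against 239, 181 and 172.4 in the p53-/- tumors. The p53R172H/- tumors were above all others, with a log2 fold change against p53-/- of 0.68 ± 0.15 (SE). Cenpa, the histone H3 variant that marks centromeres, had 725, 496 and 637 signal units in p53R172H/-, 625, 445 and 544 in p53R172H/+ and 426, 377 and 323 in p53-/- tumors. Both mutant groups were wholly above p53-/- and overlapped each other, and p53R172H/- was 1.64-fold above p53-/- (0.71 ± 0.18 SE). Another probe set of Cenpa that passed the filter was at -0.11. Cenpq, a subunit of the inner kinetochore's CENP-O group, had 259, 277 and 239 signal units in p53R172H/- and 245, 232 and 230 in p53R172H/+ tumors, against 206, 125 and 155 in the p53-/- tumors. Again the mutant groups overlapped each other and not the p53-/- tumors (log2 fold change of p53R172H/- against p53-/- 0.70 ± 0.17 SE). Cenpp, which belongs to the same group as Cenpq, went the other way. It was lower in every tumor of both mutant groups than in every p53-/- tumor, at 140 ± 2.05, 138 ± 15.8 and 176 ± 12.7 signal units in p53R172H/-, p53R172H/+ and p53-/- tumors (SD, n = 3 each), although another probe set of Cenpp above the filter was at -0.09 and one under the filter at 0.62 (log2 fold change of p53R172H/- against p53-/-). The remaining members were at 0.40 for Cenpi, 0.38 for Cenpk, 0.25 for Cenph, 0.14 for Cenpn, -0.09 for Cenpm and -0.10 for Cenpt, which links the centromere to the NDC80 complex (log2 fold changes of p53R172H/- against p53-/-).

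The outer kinetochore showed the smallest median of the role groups in this comparison, 0.17 over 7 tested genes. Of these 7, 3 were higher with an unadjusted p under 0.05, against 6.44% of all genes tested. All 3 belong to the NDC80 complex, the main microtubule-binding part of the kinetochore. Spc24 had 268, 251 and 234 signal units in the p53R172H/- tumors and 194, 194 and 210 in the p53R172H/+ tumors, against 175, 189 and 184 in the p53-/- tumors. No group overlapped another, and the difference against p53-/- was 0.46 ± 0.10 (log2, SE). Spc25 was at 0.48 ± 0.15 and Nuf2 at 0.62 ± 0.20 (log2 fold change, SE), while Ndc80, the fourth subunit, was at 0.11 ± 0.13, and its p53R172H/- and p53-/- tumors overlapped. Of the MIS12 complex, Mis12 was at 0.06 ± 0.14 (SE). Nsl1 had 139, 100.4 and 112 signal units in the p53R172H/- tumors and 117, 106 and 168 in the p53R172H/+ tumors, against 124, 191 and 133 in the p53-/- tumors, so that all groups overlapped. Its other probe set, under the filter, had the opposite sign (0.17). Ska2 of the SKA complex, which stabilises microtubule attachment, was at 0.17 ± 0.13 (SE).

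The 4 genes too dim to test are given as values. Dsn1 of the MIS12 complex had 155, 115 and 137 signal units in p53R172H/-, 121, 114 and 109 in p53R172H/+ and 93.9, 87.2 and 99.9 in p53-/- tumors, with both mutant groups above p53-/-. Spag5, the spindle protein astrin, had 128, 107 and 109 signal units in p53R172H/-, 102, 71.9 and 83.1 in p53R172H/+ and 89.7, 60.1 and 72.8 in p53-/- tumors, with p53R172H/- above all others. Ska1 averaged 85.0, 73.3 and 93.0 and Ska3 93.0, 99.3 and 86.6 signal units in p53R172H/-, p53R172H/+ and p53-/- tumors. The other, dimmer probe sets of Ska1 had the opposite sign. Their log2 fold changes against p53-/- were 0.236 and 0.317 for p53R172H/- and 0.215 and 0.151 for p53R172H/+ tumors.

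Spindle assembly, midzone and cytokinesis genes had the largest median of the role groups in this comparison, 0.62 over 7 tested genes. Of these 7, 6 were higher with an unadjusted p under 0.05, against 6.44% of all genes tested. Nusap1 had 391, 487 and 384 signal units in the p53R172H/- tumors and 357, 275 and 292 in the p53R172H/+ tumors, against 254, 178 and 198 in the p53-/- tumors. The groups formed 3 separate ranges, and with any 1 tumor left out the log2 fold change of p53R172H/- against p53-/- stayed between 0.90 and 1.16. Ect2, the exchange factor that activates RhoA for cytokinesis, had 341, 397 and 396 signal units in p53R172H/-, 346, 277 and 322 in p53R172H/+ and 275, 192 and 213 in p53-/- tumors. Its mutant groups overlapped each other but not p53-/- (0.75 ± 0.15 SE for p53R172H/- against p53-/-, log2). Anln, the contractile ring scaffold anillin, was nearly even across the p53R172H/- tumors at 987, 1001 and 961 signal units, with 847, 685 and 758 in the p53R172H/+ tumors, against 773, 597 and 552 in the p53-/- tumors. All p53R172H/- values were above the others, and the other groups overlapped (0.63 ± 0.13 SE, log2). Tpx2, which activates Aurora A on the spindle, was at 0.62 ± 0.17, Racgap1 of the centralspindlin complex at 0.58 ± 0.16 and Prc1, which bundles midzone microtubules, at 0.56 ± 0.17 (log2 fold changes of p53R172H/- against p53-/-, SE).

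Hmmr, a hyaluronan receptor that also binds the spindle, was the exception in that group and depended on the probe set. Its brightest probe set averaged 703 ± 38.8, 710 ± 87.9 and 724 ± 74.0 signal units in p53R172H/-, p53R172H/+ and p53-/- tumors (SD, n = 3 each), a log2 fold change of p53R172H/- against p53-/- of -0.04 ± 0.12 (SE). The other 4 probe sets were dimmer and gave 0.39, 1.10, 0.75 and 0.02. Across the list, 12 of the 36 genes had over 1 probe set above the filter, and in 8 of these all such probe sets had the same sign for p53R172H/- against p53-/-, the exceptions being Bub3, Cdca8, Cenpa and Hmmr.

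Of the centrosome and securin genes, Nek2, a kinase of centrosome separation, had 304, 288 and 281 signal units in p53R172H/-, 255, 197 and 206 in p53R172H/+ and 248, 188 and 168 in p53-/- tumors. The p53R172H/- tumors were above both other groups, which overlapped (0.55 ± 0.16 SE against p53-/-, log2). Pttg1, the securin that holds separase inactive, was at 0.34 ± 0.16 (SE), with 1755 to 1995 signal units in p53R172H/- tumors and a wider range of 1220 to 1974 in p53-/- tumors.

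**Figure D3:**
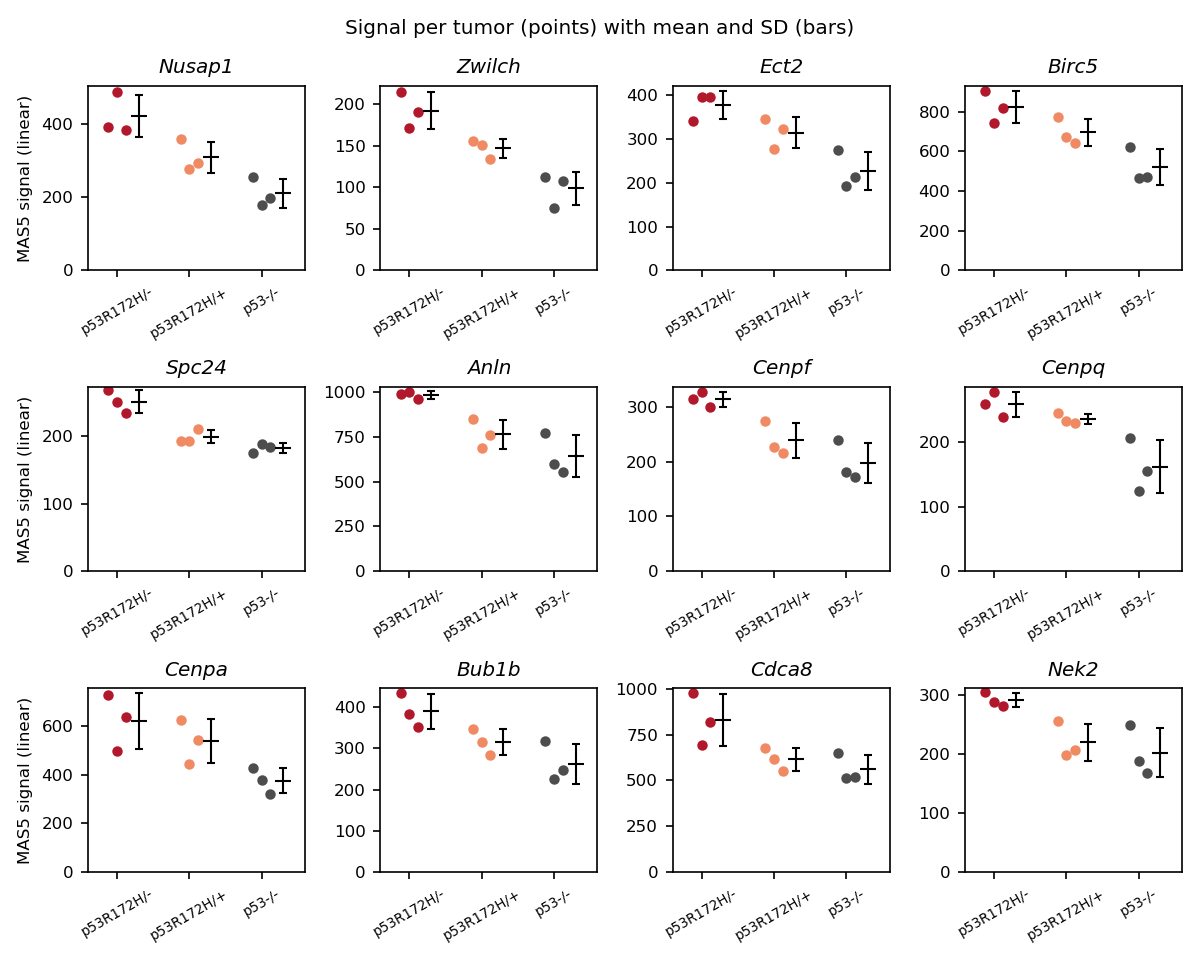
MAS5 signal (linear axis from 0) of 12 listed genes in each tumor (points) with the mean and SD of each group of 3 (bars to the right of the points). Nusap1, Zwilch and Spc24 form 3 separate ranges with p53R172H/- highest, while Cenpa and Cenpq separate both mutant groups from p53-/- tumors and not from each other.

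The count of genes higher with an unadjusted p under 0.05 was 25 of 36 in all tumors and 17 without p53R172H/- tumor 1, 23 without p53-/- tumor 1 and 20 to 24 without any other tumor. The median log2 fold change was 0.35 without p53R172H/- tumor 1 and 0.56 without p53-/- tumor 1. The 3′ to 5′ signal ratio of the array's Actb and Gapdh control probe sets, a measure of RNA integrity, was lower on average in both mutant groups than in p53-/- tumors, and the groups overlapped. Its log2 value was 0.14, 0.30 and 0.32 in the p53R172H/- tumors and 0.18, 0.27 and 0.25 in the p53R172H/+ tumors, against 0.36, 0.40 and 0.27 in the p53-/- tumors. With this ratio as a covariate the median was 0.36, and 16 listed genes were higher with an unadjusted p under 0.05. The share of all genes tested that reached this threshold is not given for these settings.

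In p53R172H/+ tumors 28 of the 36 genes were higher on average than in p53-/- tumors, where the share over all genes tested was 43.9%, with a median log2 fold change of 0.17 against -0.03 over all genes tested. No listed gene passed the adjusted threshold with limma, the lowest adjusted p among them being 0.359. At an unadjusted p under 0.05, which 10.3% of all genes tested reached, 8 were higher and 1 lower, against 4.75% and 5.6% of all genes tested. All p53R172H/+ tumors were above all p53-/- tumors in 11 of the 36 genes and in 7.08% of all genes tested, and below them in 1 gene and in 8.86%. The 8 higher genes were Zwilch (1.51-fold, log2 fold change 0.59 ± 0.17 SE), Cenpq (0.57 ± 0.17), Nusap1 (0.56 ± 0.16), Cenpa (0.52 ± 0.18), Ect2 (0.48 ± 0.15), Bub1 (0.45 ± 0.17), Birc5 (0.43 ± 0.14) and Tpx2 (0.43 ± 0.17), and the lower was Cenpp (-0.35 ± 0.11). This comparison and the one above share the p53-/- tumors. The count of 8 was 14 without p53-/- tumor 1, 5 without p53R172H/+ tumor 1 and 3 with the 3′ to 5′ ratio as a covariate. For these settings the share over all genes tested is not given, so the counts cannot be set against it.

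**Figure D4:**
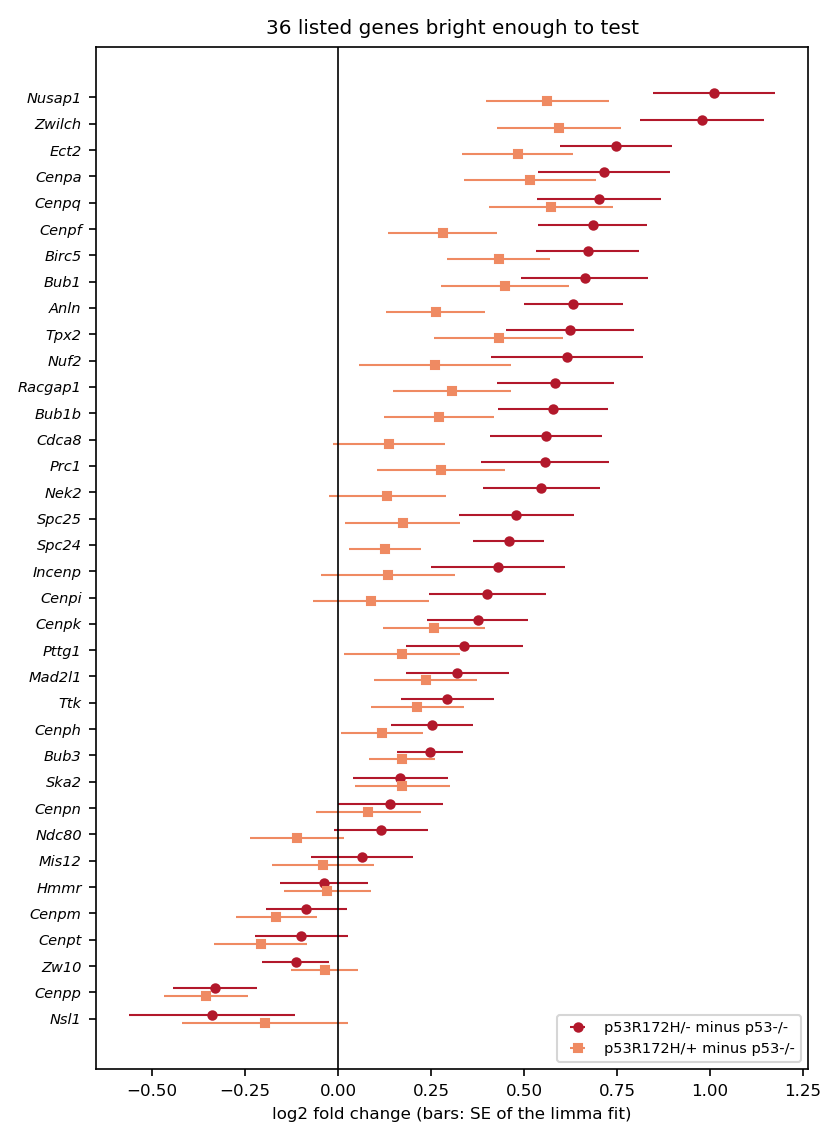
Log2 fold change with its SE (limma) of the 36 tested genes against the p53-/- tumors, red circles for p53R172H/- and orange squares for p53R172H/+ tumors. Nusap1 (1.01 and 0.56) and Zwilch (0.98 and 0.59) lie at the top and Nsl1 (-0.34 for p53R172H/-) at the bottom, and both comparisons share the p53-/- tumors.

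Set directly against p53R172H/+ tumors, the p53R172H/- tumors were higher on average in 32 of the 36 genes, where the share over all genes tested was 48%. Their median log2 fold change was 0.21, against -0.01 over all genes tested. No listed gene passed with limma, the lowest adjusted p being 0.916. At an unadjusted p under 0.05, which 4.96% of all genes tested reached, 7 were higher and 0 lower, against 2% and 2.96% of all genes tested. All p53R172H/- tumors were above all p53R172H/+ tumors in 11 of 36 genes and in 5.27% of all genes tested, and below them in 0 genes and in 6.62%. The 7 genes were Nusap1 (log2 fold change 0.45 ± 0.16 SE), Cdca8 (0.42 ± 0.15), Nek2 (0.41 ± 0.16), Cenpf (0.40 ± 0.15), Zwilch (0.38 ± 0.17), Anln (0.37 ± 0.13) and Spc24 (0.33 ± 0.10). Cenpq, Bub3 and Ttk, by contrast, had values of 0.13 ± 0.17, 0.08 ± 0.09 and 0.08 ± 0.13 (SE). The count of 7 was 4 without p53R172H/- tumor 1, 2 and 3 without p53R172H/+ tumors 2 and 3 in turn, and 9 without p53-/- tumor 1. It was 2 with the level of fibroblast and matrix genes as a covariate, and that level did not overlap between these groups. Shares over all genes tested are not given for these settings.

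With both mutant groups averaged and set against p53-/- tumors, 30 of the 36 genes were higher on average, against 43.5% of all genes tested. At an unadjusted p under 0.05, which 15.9% of all genes tested reached, 22 were higher and 1 lower, against 6.84% and 9.09% of all genes tested. The median was 0.30, against -0.03 over all genes tested, and the lowest adjusted p of a listed gene was 0.183 (limma). All 6 mutant tumors were above all 3 p53-/- tumors in 10 of the 36 genes and in 3.34% of all genes tested, and below them in 1 gene and in 3.94%.

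Within each group 1 tumor was highest for most listed genes. The tumor labelled 1 was the highest of its group for 27 of the 36 genes among the p53R172H/- tumors, 22 among the p53R172H/+ tumors and 27 among the p53-/- tumors, where 32.8%, 24.4% and 32.1% of all genes tested had it highest. The mean log2 signal over the 36 genes was 8.53, 8.32 and 8.40 in p53R172H/- tumors 1, 2 and 3, 8.29, 8.14 and 8.22 in the p53R172H/+ tumors and 8.19, 7.96 and 7.95 in the p53-/- tumors. The lowest p53R172H/- tumor was thus just above the highest p53R172H/+ tumor, and p53-/- tumor 1 lay inside the p53R172H/+ range. Taken tumor by tumor, 30, 22 and 27 of the 36 genes exceeded every p53-/- tumor in p53R172H/- tumors 1, 2 and 3, and 21, 13 and 17 in the p53R172H/+ tumors, against 22.6% to 26.1% of all genes tested.

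For 41 tested other genes of the kinetochore and spindle, from a list that leaves out the 40, the median log2 fold change of p53R172H/- against p53-/- was 0.18. At an unadjusted p under 0.05, 13 of them were higher and 1 lower, against 6.44% and 9.16% of all genes tested. The smallest p values were those of Bora, an activator of Aurora A (0.79 ± 0.15 SE), Cep55, an abscission protein (0.89 ± 0.18), and Cenpe, a kinetochore kinesin (0.70 ± 0.16). Of 17 tested DNA replication and proliferation genes, 15 were higher and 2 lower on average, with a median of 0.18. Over all genes tested, 43.8% were higher on average. At an unadjusted p under 0.05, 4 of the 17 were higher and 0 lower. Mki67, a marker of cycling cells, had 1180, 1195 and 1205 signal units in the p53R172H/- tumors and 900, 778 and 860 in the p53R172H/+ tumors, against 1055, 674 and 794 in the p53-/- tumors. Its p53R172H/- tumors were above all others while the p53R172H/+ and p53-/- tumors overlapped. Of 20 MuvB, E2F and FOXM1 regulators, 1 was higher and 1 lower at that threshold, with a median of 0.02. The higher was E2f7, a repressor E2F (0.68 ± 0.21), and the lower Mybl2, the B-MYB partner of MuvB, with 139, 100.5 and 118 signal units in p53R172H/-, 144, 150.0 and 209 in p53R172H/+ and 167, 203 and 169 in p53-/- tumors. Foxm1, a transcription factor of mitotic genes, was at -0.07 ± 0.12 (SE), with overlapping groups.

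The labelled tissue was checked on marker genes. The 18 measured keratinocyte genes summed to 163030 to 165510 signal units in p53R172H/-, 155370 to 173410 in p53R172H/+ and 156380 to 161610 in p53-/- tumors, with none below the floor in all tumors. Skeletal muscle differed between tumors of a group. The summed signal of its 20 genes was 2033, 45119 and 20864 units across p53R172H/- tumors 1, 2 and 3, and came to 1725 to 7661 in p53R172H/+ and to 4092 to 7250 in p53-/- tumors. The tumor with the least muscle signal was the highest of its group in mean log2 signal of the listed genes among the p53R172H/- tumors (tumor 1), the lowest among the p53R172H/+ tumors (tumor 2) and neither among the p53-/- tumors (tumor 2). Without p53R172H/- tumors 2 and 3, the median for p53R172H/- against p53-/- was 0.61. This setting leaves tumor 1, which was highest for 27 of the 36 genes, and assumes that it varies like the others. With the muscle level as a covariate the median was 0.52, and 27 genes of the array passed the adjusted threshold, 0 of them listed. The 18 fibroblast and matrix genes summed to 32703 to 42949 signal units in p53R172H/-, 46692 to 58226 in p53R172H/+ and 39224 to 60726 in p53-/- tumors. The ranges of p53R172H/- and p53R172H/+ did not overlap. At an unadjusted p under 0.05, 12 of the 17 tested matrix genes were lower in p53R172H/- than in p53-/- tumors and 0 higher. Over all genes tested the shares were 9.16% lower and 6.44% higher. With the matrix level as a covariate the median for p53R172H/- against p53-/- was 0.41 with 19 genes higher at an unadjusted p under 0.05. The share over all genes tested is not given beside this count. Of the other lists, the 13 myeloid genes summed to 25414 to 35589, 28555 to 36387 and 24578 to 26367 and the 15 hair keratin genes to 4783 to 31312, 4022 to 14138 and 6827 to 14574 signal units in p53R172H/-, p53R172H/+ and p53-/- tumors. Lymphocyte, endothelial and salivary gland sums were between 1106 and 3291 in every tumor, with Ms4a1, Jchain and Amy1 below the floor in all 9. The salivary gland sums overlapped between groups, but the mean log2 signal of the 8 genes did not. It was 6.825 to 6.902 in p53R172H/-, 6.926 to 6.963 in p53R172H/+ and 7.004 to 7.044 in p53-/- tumors. Only 3 of these 8 genes passed the filter. With the hair keratin level as a covariate the median was 0.45, and the part of myeloid, lymphocyte, endothelial and salivary gland content in the results was not tested.

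**Figure D5:**
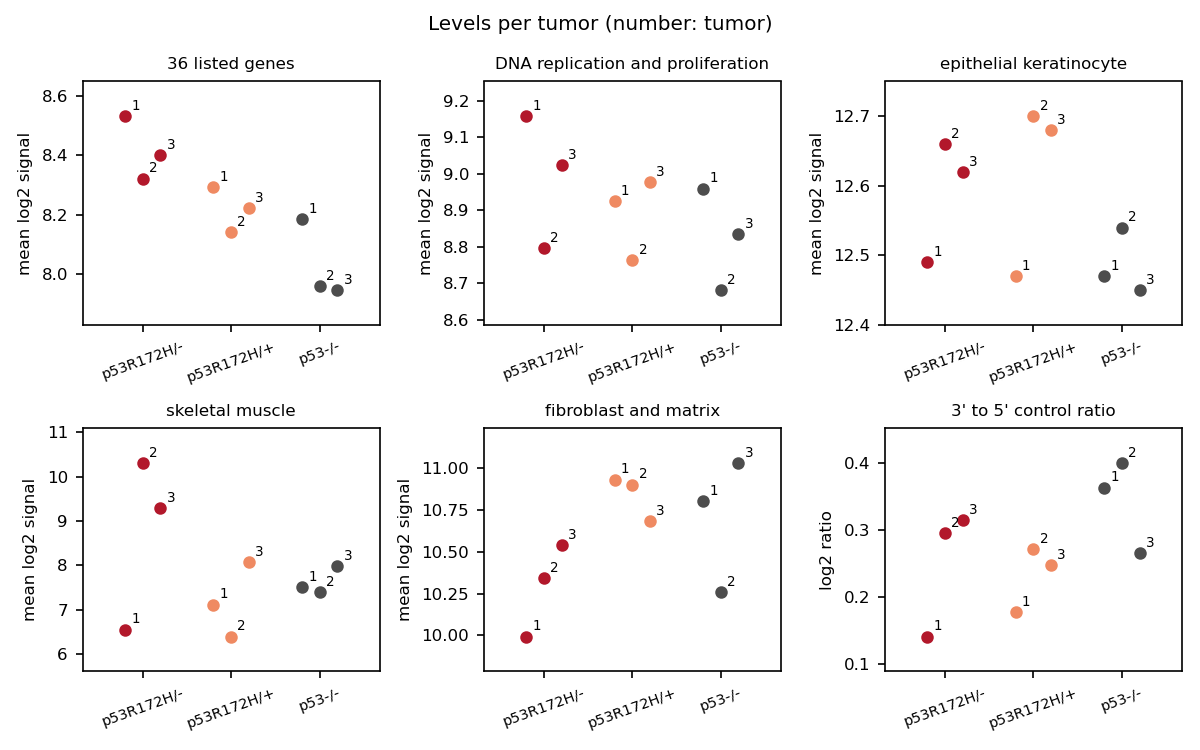
Mean log2 signal of the 36 tested genes and of 4 marker lists, and the log2 3′ to 5′ ratio of the Actb and Gapdh control probe sets, in each tumor (points, with the tumor's number). The listed genes order the groups as p53R172H/- (8.32 to 8.53), p53R172H/+ (8.14 to 8.29) and p53-/- (7.95 to 8.19), whereas muscle signal is high in p53R172H/- tumors 2 and 3 alone and the 3′ to 5′ ratio is lowest in p53R172H/- tumor 1.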

How the data were processed

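RNA of 9 oral tumors was labelled with biotin and measured on Affymetrix arrays, as the labels state. The authors deposited a linear intensity for every probe set on each array, made with MAS5 per the submitters' processing notes. The version and scaling of MAS5 are not stated in them. Of 45101 probe sets, 64 are controls, 34945 carry 1 gene symbol in the platform's annotation, 932 carry several and 9160 none, and those with several or none were left untested. Intensities below 52.6 units, the 20th percentile, were set to that floor before log2, and arrays were not normalized again. The brightest probe set stood for a gene, and a gene needed a mean log2 signal above the median of that mean over the non-control probe sets (113.1 units when turned back from log2), which kept 12167 of 18193 genes. The floor also limits fold changes of dim genes, and 0.0758% of tested values lay at the floor.

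limma 3.58.1 in R 4.3.3 estimated group means over the 9 arrays (lmFit, then eBayes with trend). Its two-sided p-values were adjusted by Benjamini and Hochberg's method over every tested gene and read at 0.05. The fit was tested on simulated data with changes larger than those of the listed genes, so that test does not cover changes of their size. There were 4 comparisons: p53R172H/- against p53-/-, p53R172H/+ against p53-/-, p53R172H/- against p53R172H/+, and the mean of both mutant groups against p53-/-. The listed genes, the other lists and the motifs were chosen with earlier results of these data known, so no list was tested as a set. Named with all values were the 10, 4 and 4 genes of smallest p in the comparisons that set 1 group against another, the lowest and highest fold change, and the first gene of each role. Of other lists, up to 3 genes of smallest p were named. Values of Hmmr, Dsn1, Spag5 and Foxm1 were added after they were seen. Any 2 arrays shared at most 0.0421% of values. The targeted gene and the sequence of 1 element are not reported here. Tumor numbers were not taken as pairs, because the labels do not state a pairing. Of 9 same-numbered pairs, 4 had deviations from their group means correlated above 0.1, which does not settle whether they are pairs. Alternatives covered normalization, floor, filter, probe set choice, variance model, covariates, a block on tumor number, and leaving out tumors. The number of arrays limits the precision.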

Additional observations from a re-analysis of the deposited data

How the results depend on the processing

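The median log2 fold change of the listed genes kept its sign in all 4 comparisons under every alternative run. For p53R172H/- against p53-/- tumors (0.45) it was 0.56 with the filter at the 75th percentile, 0.30 with the mean of all probe sets, 0.55 with the keratinocyte level as a covariate, 0.61 without p53R172H/- tumors 2 and 3, and 0.35 to 0.56 with 1 tumor left out. For p53R172H/+ against p53-/- (0.17) it was 0.31 with the keratinocyte covariate and 0.14 to 0.27 with 1 tumor left out. For p53R172H/- against p53R172H/+ (0.21) it was 0.32 with the muscle covariate, 0.36 without p53R172H/- tumors 2 and 3, and 0.13 to 0.30 with 1 tumor left out. For both mutant groups (0.30) it was 0.42 with the keratinocyte covariate and 0.27 to 0.40 with 1 tumor left out. The alternatives without tumors 2 and 3 and with a hair keratin covariate were chosen after seeing the data.

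Counts of listed genes higher at an unadjusted p under 0.05 (25, 8, 7 and 22 in the 4 comparisons, in the order given in the methods) were 13, 4, 3 and 12 with the filter at the 75th percentile, which left 17 listed genes. They were 15, 5 and 11 in the first, second and last comparison with the second brightest probe set (25 listed genes tested), and 16, 3 and 8 there with the 3′ to 5′ ratio as a covariate. The second was 5 with the mean of probe sets and 13 with the keratinocyte covariate. The third was 2 with the matrix covariate. With 1 tumor left out they ran from 17 to 24, 5 to 14, 2 to 9 and 15 to 23. The shares of all genes tested that reached this threshold under the alternatives are not given. Genes of the whole array past the adjusted threshold, 0 in each comparison, were 27 in the first and 4 in the last with the muscle covariate, 2, 1 and 6 in the first, second and last with the matrix covariate, 1 in the first with the keratinocyte covariate, 3 in the first without p53R172H/- tumors 2 and 3, and from 0 to 1 with 1 tumor left out in the last, and 0 of these were listed genes. The tumor number as a block gave counts of 23, 11, 14 and 22 listed genes, the third being 7 without it, and no gene of the array passed. Each of 2 of 9 tumors correlated best with its own number, and with so few tumors this cannot decide whether the numbers pair them.

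Single genes changed sign mainly with the probe set. For p53R172H/- against p53-/-, the mean of probe sets gave 0.0679 for Cenpp and 0.45 for Hmmr, and the second brightest gave -0.11 for Bub3, -0.16 for Spc25, 0.17 for Nsl1, -0.11 for Cenpa, -0.22 for Cenpf, -0.10 for Nusap1 and 0.39 for Hmmr. For p53R172H/+ against p53-/-, the mean of probe sets gave 0.0341 for Cenpp, and the second brightest gave -0.13 for Cenpa and -0.10 for Nusap1. The second probe sets of Nusap1, Spc25 and Cenpf are dim. Ndc80 was at -0.000233 with the matrix covariate and Hmmr at 0.0411 without p53R172H/- tumors 2 and 3. With 1 tumor left out, Hmmr ran between -0.126 and 0.00932 and Mis12 between -0.00956 and 0.146. The causes were not tested.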
